A study of Mus musculus with 2 samples.

Results

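The genes described here encode the constant parts of mouse antibodies and the chain that joins them: the heavy chain genes Ighm, Ighd, Igha, Ighg2c, Ighg2b and Ighg3, the light chain genes Igkc, Iglc1 and Iglc2, and Jchain. They are 10 of the 28692 genes in the count matrices, were chosen by name, and were measured in the cells of deposited cluster 9, with all other clusters as background. The cells were CD45+ leukocytes resident in adipose tissue of adult wt C57BL/6 mice, sequenced singly with 10x Genomics chemistry. The mice had eaten either chow, as control, or a ketogenic diet (KD, very low in carbohydrate) for 1 week, and cells inside blood vessels had been told apart by an intravenous label. Each diet is 1 library, the number of mice behind it is not given in the sources used here, and both groups share strain, genotype and tissue. No difference between the diets below therefore has a replicate check, no test between diets was possible, and every interval is a 95% interval for counting error only.

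An antibody is built from heavy and light chains. A B cell first makes the heavy chains of IgM and IgD from 1 long transcript of the locus, with Ighm nearest to the variable part, and may later switch its DNA to a gene further along (Ighg3, Ighg1, Ighg2b, Ighg2c, Ighe or Igha) that gives the antibody another class with other effector functions. Each cell uses either the kappa light chain (Igkc) or a lambda light chain (Iglc1, Iglc2, Iglc3), and in the mouse most use kappa. B cells carry antibody on their surface and hold modest amounts of its transcripts, whereas plasma cells secrete it and hold very large amounts, and they also make the J chain that links IgM and IgA into polymers. Fat tissue and the body cavities are known to house B-1 cells, a lineage that secretes natural IgM.

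All heavy chain genes lie on the minus strand of chromosome 12 in GRCm38 (GENCODE M21), where they are annotated as immunoglobulin constant genes. Ighm spans chr12:113418558-113422730, Ighd chr12:113406604-113416324, Ighg3 chr12:113356224-113361232, Ighg2b chr12:113302965-113307933, Ighg2c chr12:113285325-113288932 and Igha chr12:113254830-113260236. Igkc lies at chr6:70726435-70726966 on the plus strand, Iglc1 at chr16:19061618-19062071 and Iglc2 at chr16:19198396-19200351, both on the minus strand, and the protein-coding gene Jchain at chr5:88519809-88527891 on the minus strand. A unique molecular identifier (UMI) counts 1 captured transcript molecule, so UMIs are compared between genes without dividing by length. Membrane and secreted forms of a heavy chain are not separated in a count per gene.

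The lambda genes are shown because how far they can be told apart decides how their counts may be read. In the coding part of the Ensembl transcripts of GENCODE M21, Iglc2 and Iglc3 were 96.5% identical, with 11 differing bases among 314 aligned bases and a longest shared run of 79 bases. Iglc1 was 75.6% identical to Iglc2, with a longest shared run of 19 bases. Counts of Iglc2 and Iglc3 are therefore uncertain against each other, and those of Iglc1 less so. Below, capitals mark bases that differ from Iglc2 or have no partner in it. Shown are the first 240 coding bases of each, Iglc2 at chr16:19198614-19198853, Iglc3 at chr16:19065442-19065681 and Iglc1 at chr16:19061832-19062071, 5′ to 3′ in the sense of the transcript. Within them Iglc3 has 10 and Iglc1 has 61 such bases.
Iglc2: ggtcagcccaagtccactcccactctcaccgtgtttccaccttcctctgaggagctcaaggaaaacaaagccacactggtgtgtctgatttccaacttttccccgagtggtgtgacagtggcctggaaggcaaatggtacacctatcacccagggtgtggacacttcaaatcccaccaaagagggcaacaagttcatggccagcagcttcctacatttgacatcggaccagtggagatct
Iglc3: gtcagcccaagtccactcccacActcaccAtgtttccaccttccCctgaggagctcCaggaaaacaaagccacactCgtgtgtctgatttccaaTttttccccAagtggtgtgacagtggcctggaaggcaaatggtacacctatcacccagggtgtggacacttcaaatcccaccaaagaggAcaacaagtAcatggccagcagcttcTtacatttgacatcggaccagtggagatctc
Iglc1: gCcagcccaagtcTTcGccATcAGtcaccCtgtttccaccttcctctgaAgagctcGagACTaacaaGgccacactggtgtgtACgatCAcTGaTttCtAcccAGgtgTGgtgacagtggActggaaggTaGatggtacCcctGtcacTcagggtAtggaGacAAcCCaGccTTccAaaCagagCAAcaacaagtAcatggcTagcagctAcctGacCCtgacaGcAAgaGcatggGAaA

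Cluster 9 held 82 of 4458 clustered cells (1.84%, interval 1.47% to 2.28%) in the chow library and 245 of 5559 (4.41%, interval 3.88% to 4.98%) in the KD library. Its cells summed to 705972 and 1756721 UMIs, with medians of 5806 and 4192 UMIs per cell, against medians of 3469 and 3461.5 over all cells. Cd79a, a signalling partner of the B cell receptor, had a UMI in 81 of 82 and 244 of 245 of its cells, and the adipocyte gene Adipoq, the endothelial gene Cdh5 and the fibroblast gene Pdgfra had none there. Ptprc, which encodes CD45, had a UMI in 63.4% of chow and 71.8% of KD cells of cluster 9, against 82.6% and 82.3% of all clustered cells. The libraries shared 41 cell barcodes, of which 4 fell in cluster 9 of 1 library and 0 in cluster 9 of both. Doublets had not been called in the files and were not removed here.

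Cells of cluster 9 were ordered by a plasma fraction, the UMIs of 9 plasma cell markers (Xbp1, Sdc1, Prdm1 and others) divided by the UMIs of these and 12 B cell markers (Ms4a1, Pax5 and others), a score that uses none of the antibody genes. Cells at 0.5 or above are called the plasma range and those below it the B range. Both are ranges and not cell types, and 15 chow and 32 KD cells lay between 0.25 and 0.75. The plasma range held 34 chow cells, 41.5% of the cluster (30.7% to 52.9%), and 48 KD cells, 19.6% (14.8% to 25.1%). As shares of all clustered cells the plasma range was 0.763% and 0.863%, a ratio of 1.13 whose interval of 0.715 to 1.81 includes 1. The B range held 48 and 197 cells, 1.08% and 3.54% of clustered cells, a ratio of 3.29 (2.39 to 4.61). The difference in cluster size between the libraries lay mostly in the B range.

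Antibody transcripts split the cluster along this order. The 10 genes together made up a median of 62.4% of the UMIs of a chow plasma-range cell and 62.9% of a KD one, against 1.87% and 1.60% in the B range. Plasma-range cells held 94.6% and 94.4% of the cluster's UMIs of these genes, although they were the smaller part of its cells. Above 10% of UMIs stood all 34 chow and 45 of 48 KD plasma-range cells, but only 1 of 48 and 3 of 197 B-range cells, and those 4 had plasma fractions of 0.379 to 0.45. A single KD plasma-range cell held 0.159%. It had 39588 UMIs, 129 UMIs of T cell markers, 63 of cycling markers, 9 of plasma markers and 0 of B markers. This cell is left out of plasma-range CPM and per-cell values of the 10 genes below. The 4 B-range cells above 10% are likewise left out of B-range ones. Both exclusions were chosen after seeing the data. Calls past 2-fold, log2 ratios under alternatives, counts of cells by class or light chain, and values of other genes keep these cells unless stated.

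**Figure D1:**
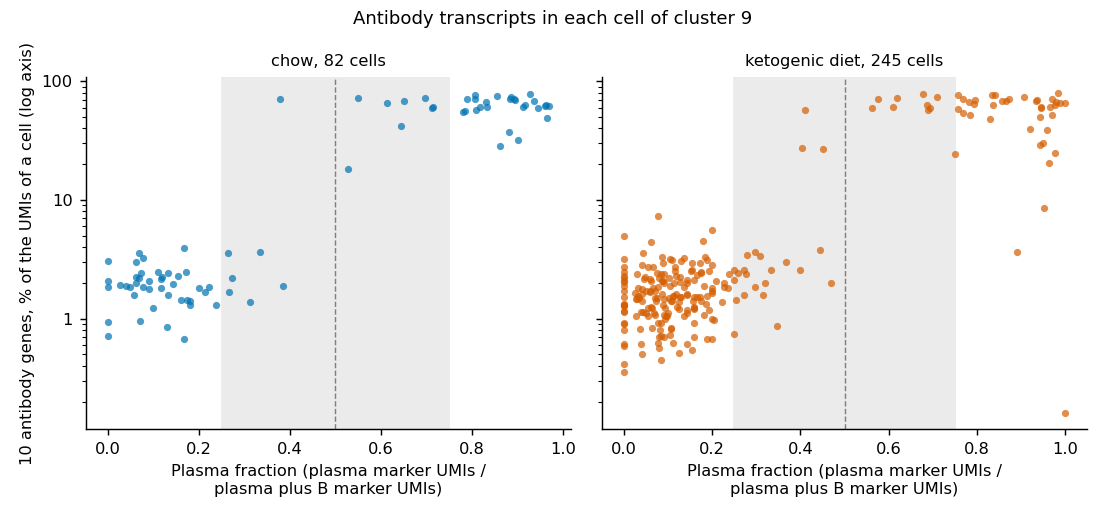
Share of the UMIs of each cell taken by the 10 antibody genes (log axis) against the plasma fraction, with 1 point per cell of cluster 9, chow at left and KD at right; the dashed line is the boundary at 0.5 and the grey band the range from 0.25 to 0.75. Plasma-range cells gather near the medians of 62.4% and 62.9% and B-range cells near 1.87% and 1.60%.

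Over the whole cluster the 10 genes took 47.4% of the UMIs of the chow cells and 28.9% of those of the KD cells, a log2 ratio of KD over chow of -0.71. Of the 10 genes, Ighd and Iglc1 were at least 2-fold higher in the KD library and Igha and Iglc2 at least 2-fold lower. Among the 1962 genes with at least 100 UMIs in the cluster, 15.2% were at least 2-fold higher and 1.27% at least 2-fold lower, and 8 of the 10 antibody genes were among these 1962. The median log2 ratio was -0.07 over the 10 genes and 0.50 over the 1962. The libraries differ in the share of plasma-range cells, so each gene is also given within each range. In the plasma range 7 of the 10 genes had at least 100 UMIs, of which Ighg2c and Iglc1 were at least 2-fold higher and Igha and Iglc2 at least 2-fold lower, where 7.65% and 2.35% of 850 genes were. Without immunoglobulin genes in the denominator Ighg2c was under 2-fold there, at a log2 ratio of 0.97 instead of 1.24. In the whole B range 6 had at least 100 UMIs, of which 0 were higher and 3 lower (Ighm, Igkc and Jchain), where 3.67% and 1.52% of 1116 genes were. Without the 4 B-range cells above 10%, 1 in chow and 3 in KD, none of the 5 genes that kept at least 100 UMIs was past 2-fold. Without the top cell of each library the B-range log2 ratio was -0.02 for Ighm, 0.19 for Igkc and 1.85 for Jchain, so the 2-fold sizes of all 3, and the directions of Igkc and Jchain, rest on single cells.

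**Figure D2:**
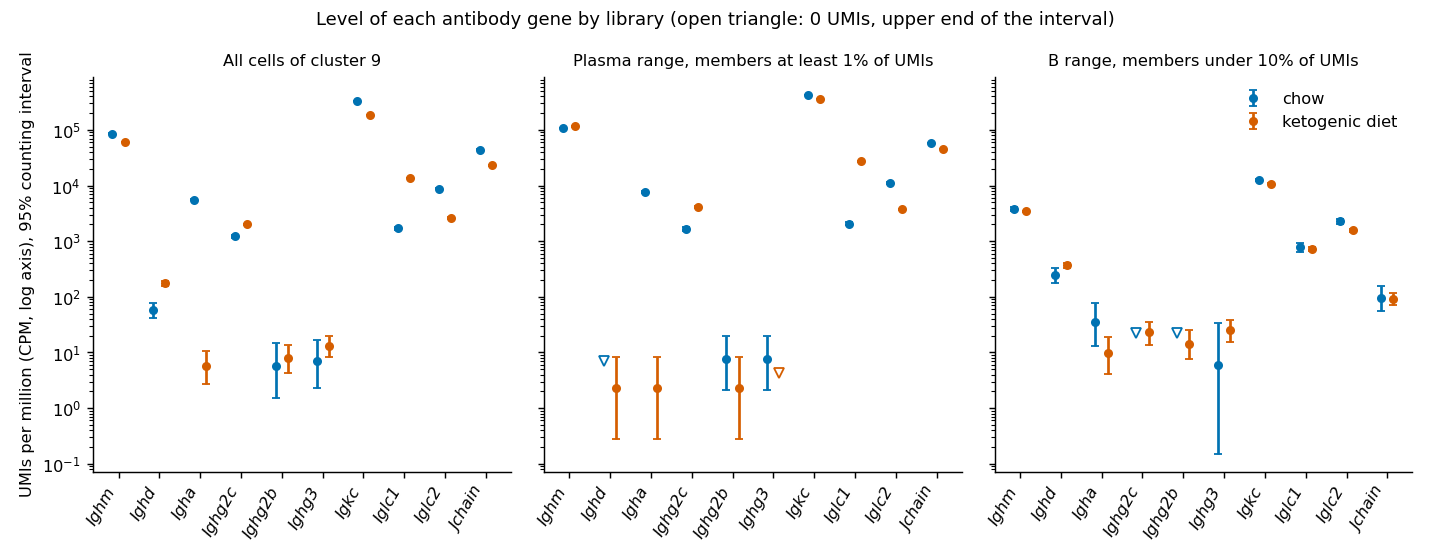
CPM (UMIs of a gene per 1000000 UMIs of the cells summed, log axis) of each antibody gene in the chow and KD libraries, over all cells of cluster 9, plasma-range cells and B-range cells; bars are 95% counting intervals and open triangles mark 0 UMIs at the upper end of the interval. Ighm stands at 85801 and 59914 CPM in the whole cluster but at 108603 and 115222 CPM in the plasma range.

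Ighm, the heavy chain of IgM, was the leading heavy chain gene in both libraries. It summed to 60573 UMIs in chow and 105252 in KD, or 85801 CPM (UMIs per 1000000 UMIs of the summed cells, interval 85119 to 86487) and 59914 CPM (59552 to 60277), a log2 ratio of -0.52. A UMI of it was found in every cell of the cluster, but also in 68.3% to 95.1% of chow and 71.8% to 96.3% of KD cells of each other cluster. In plasma-range cells its level was 108603 CPM in chow and 115222 CPM in KD, a ratio of 1.06 (1.05 to 1.07), and in B-range cells it was 3808 and 3418 CPM, a ratio of 0.898 (0.824 to 0.980). The lowest, median and highest chow plasma-range cell held 4, 1550.5 and 2969 Ighm UMIs, and the KD ones 14, 1509 and 7528. B-range cells under 10% held 1, 11 and 45 in chow and 1, 10 and 64 in KD, and the 4 cells above 10% held 3668 in chow and 3437, 182 and 158 in KD. The ranges therefore overlapped, both through those 4 cells and through the plasma-range cells of another class. Over all plasma-range cells, with none left out, the log2 ratio of Ighm was 0.02. Its sign changed in 3 of 4 alternatives, to -0.24 at the lowest. The other alternative is the exclusion that gives the ratio of 1.06.

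Ighd, the heavy chain of IgD, marks mature naive B cells and is spliced from the same long transcript as Ighm. It had 41 UMIs in 20 of 82 chow cells and 306 UMIs in 133 of 245 KD cells, 58.1 and 174 CPM, a ratio of 3.0 (2.16 to 4.26) or 1.57 on the log2 scale. The log2 ratio was 0.94 as a mean over cells of the CPM per cell, under 2-fold, 2.33 without the top 5 cells of each library and 2.59 from 3000 UMIs per cell. In chow the plasma range had 0 UMIs of it, with an upper limit of 7.12 CPM, and in KD only 2 of the 306 UMIs lay in the plasma range. Within the B range the ratio was smaller, 245 against 367 CPM or 1.5 (1.08 to 2.13), and 20 of 47 chow cells (42.6%) and 131 of 194 KD cells (67.5%) had a UMI of it. No B-range cell held more than 6 UMIs in chow or 8 in KD.

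Igha, the heavy chain of IgA, the antibody of mucosal surfaces, came from 1 cell. The chow library had 3939 UMIs, of which 3923 (99.6%) lay in a single plasma-range cell, and the KD library had 10 UMIs, each in a different cell. The levels of 5580 and 5.69 CPM gave a log2 ratio of -9.87, and without the top cell of each library the log2 ratio was -2.15 from counts of 16 and 9. The IgA cell had 18395 UMIs, 7858 of Igkc, 1201 of Jchain and 4 of Ighm.

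Ighg2c, the heavy chain of IgG2c, which C57BL/6 mice use in place of IgG2a, was also held by 1 cell per library. The chow library had 860 UMIs, 857 of them in 1 cell, and the KD library 3521 UMIs, 3491 of them in 1 cell. The levels were 1218 and 2004 CPM, a ratio of 1.65 (1.53 to 1.77) that compares 1 cell with 1 cell. As a mean over cells of the CPM per cell, the direction turned, from a log2 ratio of 0.72 to -1.35. The chow cell had 11 Ighm and 1 Jchain UMIs, and the KD cell 14 Ighm and 636 Jchain UMIs. Outside those cells 3 chow UMIs remained, and 30 KD UMIs with at most 3 in a cell.

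Ighg2b and Ighg3, the heavy chains of IgG2b and IgG3, were near the limit of detection. Ighg2b had 4 UMIs in chow and 14 in KD, and Ighg3 had 5 and 23. All 4 chow Ighg2b UMIs lay in the IgA cell. The ratios were 1.41 (0.442 to 5.87) for Ighg2b and 1.85 (0.687 to 6.22) for Ighg3, and both intervals include 1. In KD, 12 of the 23 Ighg3 UMIs lay in 1 B-range cell. Ighg2b was 86.7% identical to Ighg2c over its coding part and shared a run of 78 bases with it, so single UMIs of either are uncertain. The other class genes, Ighg1 and Ighe, had 0 UMIs in all clustered cells, which in cluster 9 allows up to 0.00459% of heavy chain UMIs in chow and 0.00275% in KD.

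**Figure D3:**
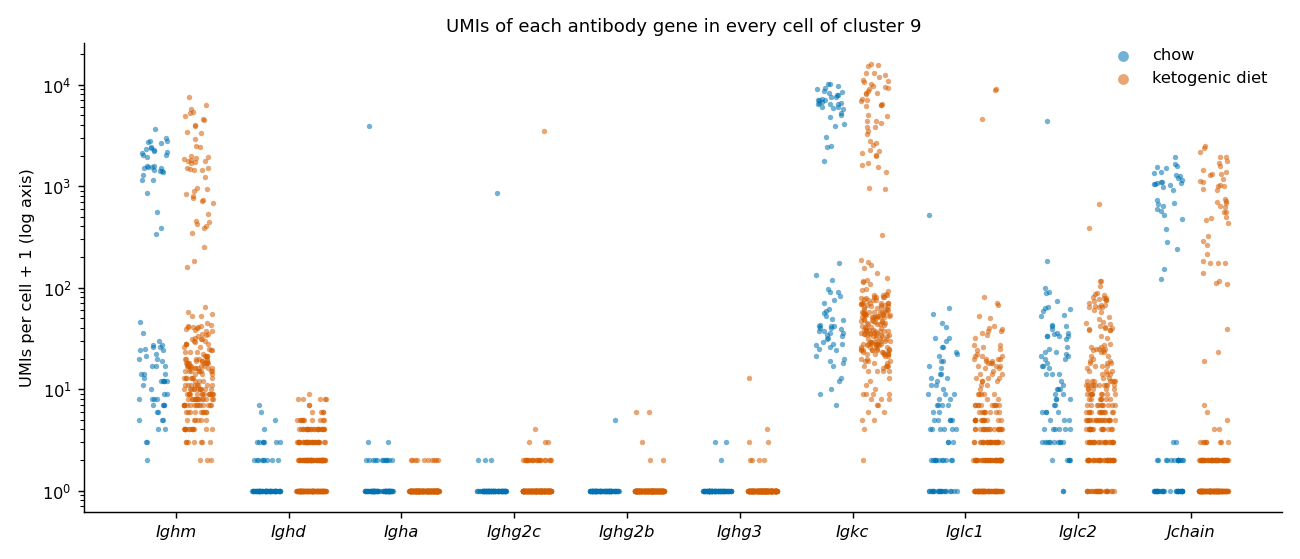
UMIs plus 1 (log axis) of each antibody gene in every cell of cluster 9, chow in blue and KD in orange, with points spread sideways at random. Ighm, Igkc and Jchain form a high and a low group of cells, whereas Igha and Ighg2c each show a single high cell, with 3923 Igha UMIs in chow and 857 and 3491 Ighg2c UMIs in chow and KD.

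Counted by cell, nearly all of the cluster was IgM or IgD. A cell with at least 3 heavy chain UMIs was assigned to the class holding at least 50% of them, with Ighm and Ighd as 1 class. In chow 79 of 81 such cells were IgM/IgD (97.5%, 91.4% to 99.7%), and in KD 236 of 241 (97.9%, 95.2% to 99.3%). Among plasma-range cells it was 32 of 34 and 47 of 48, with 1 IgA and 1 IgG2c cell in chow and 1 IgG2c cell in KD. The B range had no cell of another class among 47 in chow, which allows a share of up to 6.38%, and 4 of 193 in KD, of which 3 were counted for Ighg3 and 1 for Ighg2b. Those 4 calls rest on 2 to 12 UMIs of the class gene, beside 1 to 3 of Ighm. Outside cluster 9 only 1 Ighg3 UMI was found in each library.

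The classes hardly mixed within a cell. In the 32 chow and 47 KD plasma-range cells of IgM, with a median of 1572.5 and 1509 Ighm UMIs, no other class gene passed 2 UMIs in chow or 3 in KD. The KD cell with 3 is the one left out of levels above, and without it none passed 2. In the IgA cell and both IgG2c cells the class gene held 98.7% to 99.8% of heavy chain UMIs. By share of UMIs, Ighm held 92.6% (92.4% to 92.8%) in chow and 96.5% (96.3% to 96.6%) in KD, Igha 6.02% and 0.00916%, and Ighg2c 1.31% and 3.23%. Leaving out the single cell with the most heavy chain UMIs raised the Ighm share of the chow library to 98.5%, and in KD it was then 96.2%.

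Igkc, the kappa light chain, was the most abundant of the 10 genes. It summed to 230422 UMIs in chow and 328950 in KD, 326390 and 187252 CPM, a ratio of 0.574 (0.571 to 0.577). In plasma-range cells the levels were 421316 and 363041 CPM, a ratio of 0.862 (0.857 to 0.866), and in B-range cells 12618 and 10705 CPM, a ratio of 0.848 (0.809 to 0.890). The lowest, median and highest chow plasma-range cell had 1759, 6631 and 10136 UMIs, and the KD ones 28, 6277 and 15933. The KD cell with 28 is a lambda cell.

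Iglc1 differed most between the libraries among the light chains, with 1205 UMIs in chow and 23848 in KD, 1707 and 13575 CPM, a ratio of 7.95 (7.51 to 8.43). In KD 3 plasma-range cells held 8976, 8788 and 4533 of these UMIs, and the top 5 cells held 94.1%. In chow the top cell held 517. In B-range cells the levels were 771 and 728 CPM, a ratio of 0.944 (0.780 to 1.15). Without the top 5 cells of each library the log2 ratio over the cluster was 0.14 instead of 2.99.

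Iglc2 went the other way, with 6157 UMIs in chow and 4598 in KD, 8721 and 2617 CPM, a ratio of 0.300 (0.289 to 0.312). A single chow plasma-range cell held 4390 of the 6157 (71.3%), and the highest KD cell 670. Without the top cell of each library the log2 ratio was -0.18 instead of -1.74 over the cluster, and 0.094 instead of -1.64 in the plasma range. In B-range cells the levels were 2271 and 1575 CPM, a ratio of 0.693 (0.618 to 0.779). Iglc3, which is no member of the set but a near copy of Iglc2, had 710 and 1199 UMIs.

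Cells that chose lambda were few in both libraries. Lambda genes took 3.38% of light chain UMIs in chow and 8.27% in KD, or 1.58% and 8.63% without the cell of each library with the most light chain UMIs. By cell, 7 of 82 chow cells (8.54%, 3.5% to 16.8%) and 18 of 245 KD cells (7.35%, 4.41% to 11.4%) held more lambda than kappa UMIs. All 7 chow lambda cells and 16 of the 18 KD ones lay in the B range, where they held 23 to 62 and 10 to 138 lambda UMIs. The plasma range had 0 of 34 lambda cells in chow, which allows up to 8.82%, and 2 of 48 in KD, with 9462 and 9379 lambda UMIs. In the B range, Iglc2 led in 5 of 7 chow and 9 of 16 KD lambda cells, and both KD plasma-range lambda cells were led by Iglc1. When a lambda cell had to hold at least 80% lambda UMIs, no chow cell and 5.39% of the KD cells that could be classed qualified.

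A few plasma-range cells held both light chains above 1000 UMIs. The chow cell had 6449 Igkc and 4390 Iglc2 UMIs. A KD cell had 2137 Igkc and 8976 Iglc1 UMIs, and another had 8177 Igkc and 4533 Iglc1 UMIs. These 3 cells had 17302, 30146 and 25264 UMIs in all, against medians of 15398 and 17751 in the plasma range. Whether they are doublets was not tested.

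**Figure D4:**
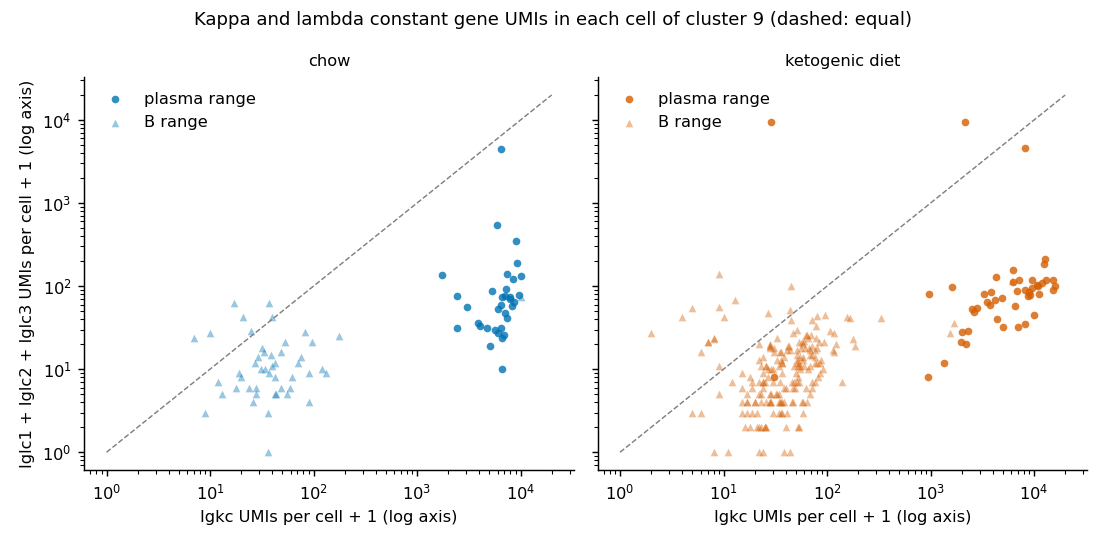
Lambda constant gene UMIs (Iglc1, Iglc2 and Iglc3 summed) against Igkc UMIs in each cell of cluster 9, both plus 1 on log axes, with circles for the plasma range, triangles for the B range and a dashed line of equal UMIs. In the plasma range most cells lie far below the line, 2 KD cells lie above it, and 1 chow and 2 KD cells hold over 1000 UMIs of both.

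Jchain, which links IgM and IgA monomers into polymers, followed the plasma range. It had 31159 UMIs in chow and 40415 in KD, 44136 and 23006 CPM, a ratio of 0.521 (0.514 to 0.529). In plasma-range cells it stood at 58353 and 45574 CPM, a ratio of 0.781 (0.769 to 0.793). The lowest, median and highest chow plasma-range cell held 1, 1034 and 1947 UMIs, and the KD ones 0, 687 and 2477. In B-range cells Jchain was 95.6 and 91.8 CPM, inside the spread of the other clusters, which ran from 87.2 to 140 CPM in chow and from 67.5 to 290 CPM in KD. The chow IgG2c cell was the one with 1 UMI, although the KD IgG2c cell held 636.

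Variable genes, which encode the antigen-binding part, were counted in the same plasma-range cells. A light chain variable gene was called leading when it had at least 5 UMIs and at least 50% of the light chain variable UMIs of a cell, a rule chosen after seeing the data. Igkv14-126 led in 15 of 30 chow cells with such a gene (50%, 31.3% to 68.7%) and in 14 of 41 KD cells (34.1%, 20.1% to 50.6%). Ighv11-2 had a UMI in 14 of those 15 chow cells and 12 of those 14 KD cells, but in 5 of the 15 other chow cells and 2 of the 27 other KD cells. All 29 were IgM kappa cells. As background, the pairing of these heavy and light variable genes is a known feature of B-1 cells that bind phosphatidylcholine. Other kappa variable genes led in at most 3 cells each per library.

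The reference sequences of the pair are given because these genes recurred across cells of both libraries. Shown are the first 290 bases of the second coding exon, which holds the variable domain, of Igkv14-126 at chr6:67896345-67896634 on the plus strand and of Ighv11-2 at chr12:114048258-114048547 on the minus strand of GRCm38, 5′ to 3′ in the sense of the transcript and all in lower case.
Igkv14-126: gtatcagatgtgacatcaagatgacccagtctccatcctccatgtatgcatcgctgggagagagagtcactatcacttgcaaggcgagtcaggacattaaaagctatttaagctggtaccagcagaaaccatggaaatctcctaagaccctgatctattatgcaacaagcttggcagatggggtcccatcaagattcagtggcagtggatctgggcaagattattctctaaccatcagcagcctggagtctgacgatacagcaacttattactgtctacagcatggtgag
Ighv11-2: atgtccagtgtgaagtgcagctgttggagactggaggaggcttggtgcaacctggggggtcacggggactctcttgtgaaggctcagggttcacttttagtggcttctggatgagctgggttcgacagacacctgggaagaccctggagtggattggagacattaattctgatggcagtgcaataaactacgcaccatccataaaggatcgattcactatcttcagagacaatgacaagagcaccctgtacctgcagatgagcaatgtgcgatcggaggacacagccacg
Outside the plasma range these genes were rare. Over all 34 and 48 plasma-range cells, Igkv14-126 stood at 1054 CPM in chow and 482 CPM in KD and at 7.41 and 4.89 CPM in the other clusters, and Ighv11-2 at 104 and 40.2 CPM against 4.55 and 4.23 CPM. In the B range, Igkv14-126 had 72 chow UMIs, 69 of them in 1 cell, and 9 KD UMIs in 9 cells.

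Iglv1, a lambda variable gene, was also counted in kappa cells. Counts per gene do not tell rearranged from unrearranged transcripts, and which end of the transcript was read is not given in the sources used here, so a leading Iglv1 does not show the light chain a cell makes. It led in 6 of 30 chow and 14 of 41 KD plasma-range cells, of which 6 and 12 were kappa cells. Its highest count, 400 UMIs, was in the KD IgG2c cell, which held 10585 Igkc and 102 lambda constant UMIs. The chow IgA cell had 130 Iglv1 UMIs beside 7858 of Igkc and 73 lambda constant UMIs. Outside cluster 9 it had 18 and 88 UMIs.

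Lists of genes that act with antibodies were read beside them, with counts over genes of at least 10 UMIs in cluster 9. Of 8341 such genes 23.1% were at least 2-fold higher in KD and 3.13% at least 2-fold lower, with a median log2 ratio of 0.47. Among 13 genes of the B cell receptor complex and its signalling, 6 were at least 2-fold higher and 0 lower, with a median of 0.90. Among them were Cd72 (9 and 127 UMIs, log2 2.43), Cr2 (4 and 39, log2 1.82), Cd22 (13 and 113, log2 1.76), Lyn (19 and 131, log2 1.44) and Fcgr2b (20 and 125, log2 1.30), whereas Cd79a, with the most UMIs, was at 0.48. Of 9 B cell identity factors, Spib (log2 2.19), Irf8 (1.42) and Ebf1 (1.10) were higher and Id3 (-1.24) was lower. Inside the B range the ratios were 1.60 for Cd72, 1.32 for Fcgr2b, 1.19 for Spib and 0.13 for Ebf1 on the log2 scale, and -0.94 for Pax5, which sets B cell identity. Over the whole B range the 13 receptor genes had a median log2 ratio of 0.56, with 11 above 0, 4 higher and 0 lower. The 9 identity factors had a median of 0.70 over the cluster but -0.08 over the whole B range. There 4 of the 9 were above 0, 1 was higher and 1 lower.

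Of 17 genes of the secretion program, none was at least 2-fold higher and 2 were lower in the whole cluster, with a median log2 ratio of -0.29. Those 2 were Irf4, a driver of plasma cell fate, with 72 and 58 UMIs (log2 -1.62), and Tnfrsf17, the survival receptor BCMA, with 71 and 78 UMIs (log2 -1.18). Within all 34 and 48 plasma-range cells Irf4 was at 112 CPM in chow and 38 CPM in KD, a log2 ratio of -1.55, and Tnfrsf17 at 133 and 82.6 CPM, a log2 ratio of -0.69 that is no longer past 2-fold. The median over the 17 genes turned to 0.16 there, with 12 of them above 0, 0 at least 2-fold higher and 1 lower. Xbp1, the factor that expands the secretory pathway, was at 759 and 1036 CPM there (log2 0.45), and the chaperone gene Mzb1 at 1820 and 2253 CPM (log2 0.31). Xbp1, Mzb1 and Tnfrsf17 are among the plasma markers that set the range.

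Of the class switch machinery, Apex1, a DNA repair enzyme, had 6 UMIs in chow and 43 in KD (log2 1.43). Of 7 B-1 associated genes 1 was higher, Cd5 with 1 and 29 UMIs (log2 2.98), and 0 were lower. Cd5 is also a T cell gene, 15 of its 29 KD UMIs lay in 4 plasma-range cells, and the T cell marker list was also higher in KD, at 69.5 CPM in chow and 345 CPM in KD over all plasma-range cells (210 CPM without the KD cell left out above) and 106 and 547 CPM over the whole B range; the part of T cells in it was not tested. Plac8 had the most UMIs, 364 and 1248 (log2 0.46), and is also in the monocyte marker list. The median log2 ratio of the 7 B-1 genes was 0.19 over the cluster but -0.24 over the whole B range, with 2 above 0. Over all plasma-range cells 6 of them had at least 10 UMIs, with a median of -0.28, 2 higher and 1 lower. Of 6 B-2 and marginal zone genes Cr2 and Ighd were higher, and Klf2 had the most UMIs, 264 and 741 (log2 0.17). The median log2 ratio of the 6 was 0.74 over the cluster but -0.20 over the whole B range. There 2 of the 6 were above 0, 1 was higher and 0 were lower.

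Receptors for antibody lay mostly outside cluster 9. Fcmr, the IgM receptor of B cells, was highest in cluster 9, with 55 chow and 384 KD UMIs (77.9 and 219 CPM, log2 1.48), and is also in the B marker list. Fcer2a, the low-affinity IgE receptor, was also highest there at 26.9 and 42.7 CPM. Fcgr1, Fcgr2b, Fcgr3 and Fcgr4, the IgG receptors, were highest in cluster 3 in both libraries, for Fcgr3 at 382 and 347 CPM. Fcgrt, the receptor that recycles IgG, was highest in cluster 5 at 154 and 189 CPM. Pigr, which carries polymeric antibody across epithelia, had 0 UMIs in chow and 5 in KD, and Fcamr had 0 in both. Within cluster 9, 2 of the 6 receptor genes with at least 10 UMIs were higher, Fcmr and Fcgr2b, and 1 was lower, Fcgr3 with 8 UMIs in each library (log2 -1.32).

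Of the cytokines that steer switching, Il5, which sustains B-1 cells, was highest in cluster 0, at 426 CPM in chow and 303 CPM in KD. Tgfb1, which directs switching to IgA, was highest in cluster 0 in chow (289 CPM) and in cluster 3 in KD (492 CPM). Tnfsf13b, the B cell survival factor BAFF, had 35 and 28 UMIs over all clusters, and Tnfsf13 had 3 and 0. In cluster 9, 4 of the 10 cytokine genes had at least 10 UMIs, of which 2 were higher: Il5 with 0 and 17 UMIs, and Ifng with 1 and 18. In the whole B range the T cell marker list summed to 106 CPM in chow and 547 CPM in KD, the NK list to 165 and 180 CPM and the ILC2 list, which holds Il5, to 79.8 and 200 CPM. The part of other cells in those UMIs was not tested.

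Outside cluster 9 every cluster carried a low level of these transcripts. Clustered cells outside it held 10.2% of the UMIs of the 10 genes in chow and 8.41% in KD, with a median of 0.183% and 0.171% of a cell's UMIs. Igkc ranged from 1122 to 1455 CPM over the 12 other clusters in chow and from 881 to 2890 CPM in KD, and Ighm from 352 to 517 and from 315 to 987 CPM. Cluster 9 stood 266 and 174 times above the median of the other clusters for Igkc and 205 and 132 times for Ighm. The levels outside differed between libraries in the genes that single cells dominate inside: Igha ran from 12.8 to 30.1 CPM in chow and from 0 to 1.25 CPM in KD, Iglc1 from 2.57 to 17.4 CPM in chow and from 75.5 to 112 CPM in KD. B-range levels of Igkc, Ighm, Iglc1 and Ighd exceed these, while Jchain does not, and Ighg2c in the KD B range, at 22.9 CPM, lay inside its spread of 11.9 to 23.7 CPM.

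For each gene, UMIs outside cluster 9 were divided by those inside, relative to the same quotient of Igkc. Without outside cells in which the 10 genes took at least 1% of UMIs, this ratio was 0.991 (0.895 to 1.09) for Igha and 1.20 (0.979 to 1.46) for Ighg2c in chow, and 1.19 (1.14 to 1.25) for Iglc1 in KD. Ighm was at 1.27 and 1.35, and Jchain at 0.648 and 0.702. Ighg2b stood apart at 51.6 (17.6 to 205) and 30.7 (16 to 62), since 23 chow and 33 KD UMIs lay outside against 4 and 14 inside.

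**Figure D5:**
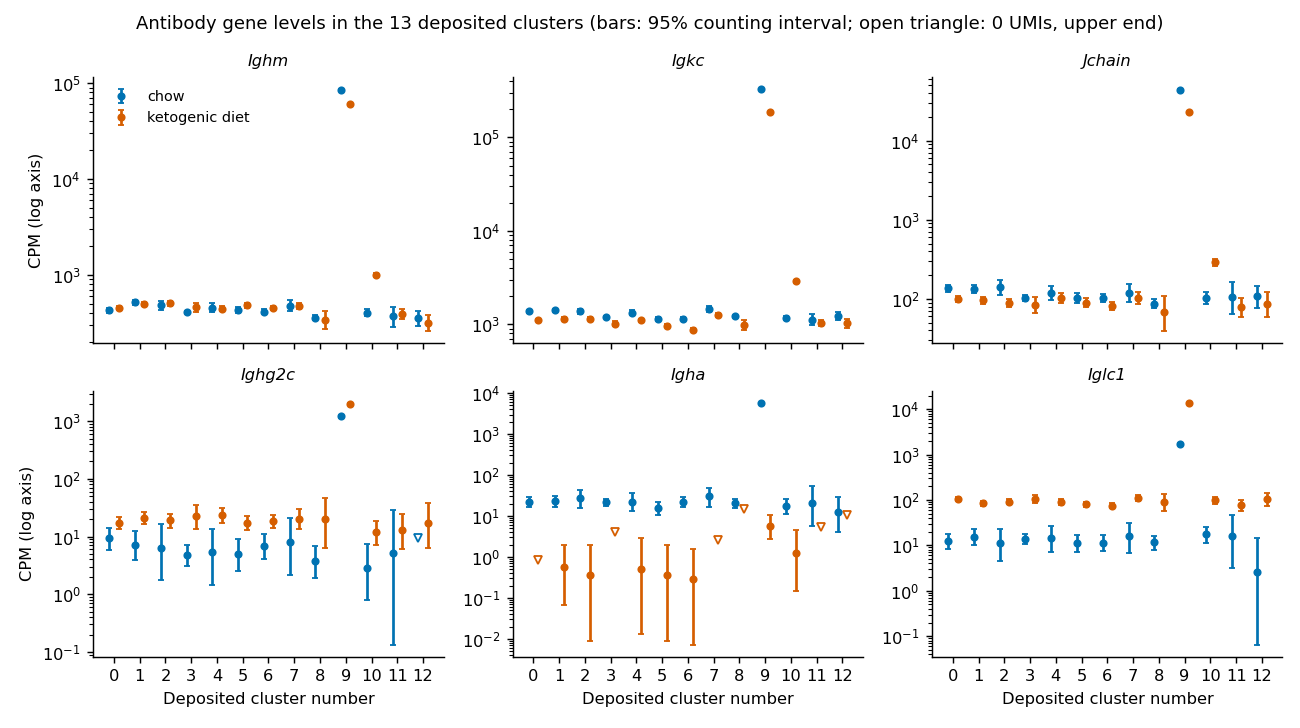
CPM (log axis) of Ighm, Igkc, Jchain, Ighg2c, Igha and Iglc1 in each of the 13 deposited clusters, chow in blue and KD in orange, with 95% counting intervals and open triangles for 0 UMIs at the upper end. Outside cluster 9, KD cluster 10 stands highest for Ighm, Igkc and Jchain, and the intervals of the libraries do not overlap for Iglc1 in any other cluster or for Igha in any but cluster 12.

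Taken as whole clusters, KD cluster 10 was the exception among the others, at 987 CPM of Ighm, 2890 of Igkc and 290 of Jchain. A single cell held 716 of its 1573 Ighm UMIs. Of the 6 KD cells outside cluster 9 in which the 10 genes took at least 1% of UMIs, 3 lay in cluster 10. The highest held 3569 of their UMIs, 23.4% of its total, with 148 UMIs of plasma markers and 14 of cycling markers. In chow 1 cell outside cluster 9 reached 1%.

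Across the 26 sums by library and cluster, the genes most like Ighm in log2(CPM + 20) were Gm43291 (Pearson r = 0.994), Fkbp11 (0.994), Bhlhe41 (0.990), Cd79a (0.988) and Mzb1 (0.985), among 10343 genes outside the antibody loci. Igkc and Jchain shared Gm43291, Fkbp11, Bhlhe41, Cd79a and Pax5 as their 5. This likeness is between sums by cluster and not between cells. Pax5 had 0 UMIs in the plasma-range cells of either library, which held 30233 of 31159 chow and 39015 of 40415 KD Jchain UMIs. Igha, abundant in 1 chow cell, had lower likeness, with Hspb1 at 0.80, Tnfrsf17 at 0.78, Oosp1 at 0.77, Ly6k at 0.75 and Prg2 at 0.73. The sums share libraries and depth, and cluster 9 stood far above the others in both libraries.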

How the data were processed

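Single-cell libraries of adipose CD45+ cells from 1 chow and 1 ketogenic group were compared. The authors deposited whole UMI counts for each cell and gene, not normalized. The submitters' processing notes name mm10, Cell Ranger and Seurat, with no role; versions and the counting strand are not given in the sources used here. Cluster numbers came from a deposited table whose header names resolution 0.5; cells without one, 87 and 55, all had more than 5% mitochondrial UMIs. Depth is 21570910 and 26041785 UMIs in all.

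UMIs were summed per library and cell group with Python 3.11.15, numpy 2.4.6 and scipy 1.17.1. CPM has an exact Poisson interval, shares an exact binomial (Clopper-Pearson) one, and ratios of CPM an exact conditional one, all at 95%. Log2 ratios have 0.5 added to each count, and a gene counts as higher or lower from 2-fold. For a count of 0, a share is limited by 3 counts and a CPM by the upper end of its Poisson interval. Reads of similar genes may be split between them by the counting. Positions and sequences come from GENCODE M21, matched by Ensembl ID for all 10 genes. Sub-clusters were made with scanpy 1.11.5. The scripts were tested on simulated data.

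The genes named were all 10 antibody genes; per list, those past 2-fold and those with the most UMIs; and the 5 most like Ighm, Igha, Igkc and Jchain. The rule for leading variable genes and the split of cluster 5 by Siglech were set after values were seen, and doublets were not called. Members and lists were chosen with earlier results of these data known. Alternatives varied the denominator, the cells kept, the thresholds and the correction for free RNA. Some genes of the lists are not reported here.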

Additional observations from a re-analysis of the deposited data

Results flagged for a closer look

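Ighm had a log2 ratio of KD over chow of 0.085 in plasma-range cells and -0.16 in B-range cells, both after leaving out the cells named in the report, a step chosen after seeing the data. Over all plasma-range cells it was 0.02, and it was -0.07 without cells near the boundary, -0.24 without immunoglobulin genes in the denominator and -0.02 without the top cell of each library. The opposite direction was thus lost in 3 of 4 alternatives, and the other alternative is the exclusion that gave 0.085. The difference between ranges was not tested, since each diet is 1 library.

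Antibody transcripts were also found in cells that the deposited table puts in no cluster. A KD cell held 1254 Ighm, 1216 Igkc and 153 Jchain UMIs, 65.6% of its total with the other antibody genes, at a mitochondrial share of 6.19%. Another held 165 Ighg2c UMIs, at a mitochondrial share of 18.7%. Among the 87 unclustered chow cells no cell had more than 19 Ighm UMIs or, in another cell, more than 30 Igkc UMIs.

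Iglc3, the near copy of Iglc2, had a high level in a few cells of cluster 5. In the 19 chow and 28 KD cells there with at least 3 UMIs of Siglech, a plasmacytoid dendritic cell gene, it stood at 1353 and 821 CPM, against 4.71 and 5.39 CPM in the other cluster 5 cells. Ighm was also higher in these Siglech cells, at 1087 and 1150 CPM against 403 and 435 CPM in the others. Igkc differed less, at 1413 and 1348 CPM against 1135 and 946 CPM. The plasmacytoid gene Cox6a2 was at 1461 and 1174 CPM in the same cells, and the B cell gene Ms4a1 had 0 UMIs, in chow with an upper limit of 44.6 CPM.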

How the results depend on the processing

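No paired analysis was possible because each diet has 1 library, and for the same reason no replicate could be left out. The level of all 10 genes in cluster 9 (log2 -0.71) was -1.15 without immunoglobulin genes in the denominator, -1.07 as a mean over cells, -0.74 and -0.81 without the top 1 or 5 cells of each library, -0.69 from 3000 UMIs per cell and -0.57 without cells holding 10 or more UMIs of other lineages. The count past 2-fold higher (2) was 4 without the top cell, and the count lower (2) was 4 with the other denominator, 5 as a mean over cells and 1 without the top cell. The Ighm share of heavy chain UMIs (92.6% and 96.5%) was 98.5% and 96.2% without the top cell, 98.1% and 95.1% without the top 5, and 91.2% and 86.3% as a mean over cells. The lambda share of UMIs (3.38% and 8.27%) was 1.58% and 8.63% without the top cell and 3.62% and 9.16% without cells of other lineages, and the chow share of lambda cells was 0% when 80% of light chain UMIs was required. The plasma-range share was 59.6% and 27.4% from 3000 UMIs per cell, and 29.0% in KD with the boundary at 0.25. Within the plasma range the level of the 10 genes (-0.19) was -0.28 without cells near the boundary, -0.46 with the other denominator, -0.20 without the top cell and -0.13 without the cell under 1%. Within the B range (-1.53) it was -0.22 without cells near the boundary, -1.62 with the other denominator and -0.23 without cells above 10%, and it reversed to 0.10 without the top cell. Without the top cell, Iglc2 in the plasma range (0.094), Igkc in the B range (0.19) and Jchain in the B range (1.85) also reversed, so these directions rest on single cells. As a mean over cells Ighg2c in cluster 9 (0.72) was -1.35. Member UMIs outside cluster 9 (10.2% and 8.41%) were 7.92% and 6.97% from 3000 UMIs per cell, and 7.59% in KD without outside cells of at least 1%. Of 148 values for single genes, 12 had another sign than the main value: besides these 4, Ighm in the plasma range (3 settings), Iglc1 in the B range (3) and Ighg2b in cluster 9 (2), whose main values were under 2-fold. The exclusions of other-lineage cells, of cells under 1% and of cells above 10% were chosen after seeing the data.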
